A study of Mus musculus with 4 samples.

Results

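A set of 8 genes of lipoprotein traffic was followed in single cells of the mouse ascending aorta. They are the receptors Lrp1, Lrp6 and Vldlr, the apolipoprotein Apoe, the lipase Lpl, the sterol transporters Abca1 and Abcg1, and the fatty acid receptor Cd36. The genes were taken from a named list, not by a cut on their values, but with earlier results of these data known. All 8 were present among the 18112 genes common to the 3 count tables. Each was read in 3 classes of cells set by transcripts counted in the cell (UMIs, unique molecular identifiers, each standing for 1 captured transcript). Smooth muscle cells had at least 5 UMIs of Myh11 and 0 of Pdgfra. Fibroblasts had at least 1 UMI of Pdgfra and at most 2 of Myh11. Macrophages had at least 10 UMIs of C1qa, C1qb and Lyz2 together and fewer than 5 of Myh11.

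The mice were male and of the strain labelled Mef2c-mTmG, in which a fluorescent reporter traces cells by lineage, so that live single cells could be sorted by that reporter before droplet capture. The study's question was how the response to angiotensin II (AngII), a peptide hormone that constricts vessels and raises blood pressure, differs between second heart field (SHF) cells and cells of other origins. The libraries used were SHF baseline, SHF AngII and CNC AngII, where AngII animals had been infused for 3 days and CNC is a lineage label that is not spelled out in the sources used here. CNC baseline was not analysed here, and the labels give neither the age of the mice nor whether cells of several mice were pooled. With 1 library in each group nothing here could be checked against replicates and no test was made; every interval is a 95% interval and covers counting error only.

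Low-density lipoprotein (LDL) receptor family members are large endocytic receptors that bind apolipoprotein E and many other extracellular ligands. LRP1 also clears proteases and their inhibitors from the arterial wall, and LRP6 is a co-receptor for Wnt ligands. Lipoprotein lipase releases fatty acids from circulating triglyceride. ABCA1 and ABCG1 move cholesterol out of cells to acceptor particles, under the control of the sterol-sensing nuclear receptors called liver X receptors (LXR). CD36 takes up fatty acids and modified lipoproteins, chiefly in macrophages, adipocytes and endothelium.

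The libraries held 9412 to 11166 barcodes, 92474476 to 150954701 UMIs and, after filtering, 8374 to 10194 cells with a median of 10315.5 to 13325 UMIs. The order of libraries from here on is SHF baseline, SHF AngII, CNC AngII, where it is not named. Smooth muscle cells numbered 2259, 4649 and 6385, fibroblasts 3939, 2640 and 842, and macrophages 8, 13 and 1764. The few SHF cells that met the macrophage gate also carried fibroblast markers (12495 and 6356 CPM summed over 7 markers, CPM being a gene's UMIs per 1000000 UMIs of its class in that library), so the macrophage account rests on CNC AngII. In that library the macrophages had UMIs of all 9 macrophage markers, at a summed 32865 CPM, against 404 for 7 smooth muscle markers. Both sums are partly set by the gate, which selects on C1qa, C1qb and Lyz2 and caps Myh11. Of the macrophage markers outside the gate, C1qc stood at 4418 CPM, Mrc1 at 1433, Cd68 at 1056, Csf1r at 513, Adgre1 at 322 and Ptprc at 158. Between 29 and 34 barcodes were shared by any pair of libraries. A total of 18760 genes is listed at baseline and 32285 for either AngII library, so an effect of AngII and a difference in how the tables or libraries were made cannot be told apart.

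On the mouse build GRCm38, in the GENCODE M21 annotation, Lrp1 lies at chr10:127538161-127621148, Lrp6 at chr6:134446476-134566965, Apoe at chr7:19696109-19699188, Abca1 at chr4:53030787-53159895 and Cd36 at chr5:17781690-17888801, all on the minus strand. Vldlr lies at chr19:27216484-27254231, Lpl at chr8:68880491-68907448 and Abcg1 at chr17:31057675-31117988, on the plus strand. No exon of these 8 genes overlaps an exon of another gene on either strand in that annotation.

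Promoter sequence was in the RefSeq table (GRCm38.p6) for 5 of the 8 genes. The 250 bases before the start site are shown for Apoe, Abca1 and Vldlr, whose levels in fibroblasts were furthest below baseline after AngII, and for Lrp1, which stayed inside 1.5-fold of it. They run 5′ to 3′ in the direction of the gene, from chr7:19699189-19699438 (minus strand), chr4:53159896-53160145 (minus), chr19:27216234-27216483 (plus) and chr10:127621149-127621398 (minus). Capitals mark matches, on either strand, to the motifs listed after them.
Apoe: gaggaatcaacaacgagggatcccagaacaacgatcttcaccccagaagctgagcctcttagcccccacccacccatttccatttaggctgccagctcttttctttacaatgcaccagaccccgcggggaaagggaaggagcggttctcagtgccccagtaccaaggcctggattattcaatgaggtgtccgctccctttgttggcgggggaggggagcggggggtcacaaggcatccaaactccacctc
Abca1: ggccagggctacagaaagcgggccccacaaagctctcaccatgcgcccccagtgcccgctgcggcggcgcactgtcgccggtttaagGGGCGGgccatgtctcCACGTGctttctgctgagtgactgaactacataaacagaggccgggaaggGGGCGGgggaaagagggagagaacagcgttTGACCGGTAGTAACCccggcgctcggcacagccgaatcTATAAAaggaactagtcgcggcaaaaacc
Vldlr: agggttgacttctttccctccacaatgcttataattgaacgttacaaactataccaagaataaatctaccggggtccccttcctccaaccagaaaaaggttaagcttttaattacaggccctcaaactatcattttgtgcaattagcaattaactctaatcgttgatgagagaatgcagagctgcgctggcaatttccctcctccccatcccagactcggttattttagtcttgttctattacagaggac
Lrp1: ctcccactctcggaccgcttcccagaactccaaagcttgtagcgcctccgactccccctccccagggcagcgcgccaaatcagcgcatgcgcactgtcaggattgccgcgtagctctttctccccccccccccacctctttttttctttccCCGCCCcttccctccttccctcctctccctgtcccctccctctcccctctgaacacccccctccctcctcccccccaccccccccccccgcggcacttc
Motifs searched were the GC box GGGCGG (held by 32.7% of 32851 windows of this length in the table), the TATA box TATAAA (12.4%), the E-box CACGTG (6.02%), the AP-1 site TGANTCA (6.75%), the sterol regulatory element (0.192%) and the LXR direct repeat (0.0791%). A looser form of the repeat, with its first base left free, was added after the stricter one gave no match and is held by 0.177%. Abca1 had 2 GC boxes, 1 E-box, 1 TATA box that began 29 bases before the start site, and 1 match to the looser repeat, which began 67 bases before it on the opposite strand. Lrp1 had 1 GC box, and the windows shown for Apoe and Vldlr held none of the 7 motifs. The table gives Vldlr another start site, whose window held 1 GC box. It gives Apoe further start sites. Their window at chr7:19698622-19698871 held 2 TATA boxes that overlap on opposite strands, and that at chr7:19698399-19698648 held none of the 7 motifs. The window of Cd36, not shown, held 2 GC boxes. A match is a description of letters, not of a factor bound there.

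Lrp1 was highest in fibroblasts in each library where 50 or more cells could be read. Lrp1 stood at 967 CPM (957 to 977) in fibroblasts, then 665 (658 to 673) and 605 (591 to 620). In smooth muscle it was 170 (165 to 174), 134 (131 to 137) and 140 (137 to 142). Macrophages of CNC AngII, at 234 (228 to 241), came between the classes. Fibroblasts were therefore 5.7-fold, 4.97-fold and 4.33-fold above smooth muscle. After every cell was thinned to 2000 UMIs, 81.6%, 70.9% and 70.0% of fibroblasts still had an Lrp1 UMI, against 28.0%, 22.3% and 23.4% of smooth muscle cells. Without thinning the shares were 97.7%, 98.9% and 97.9% against 84.5%, 76.4% and 80.1%, at median depths of 9534 to 15485.5 UMIs in fibroblasts and 12441 to 13450 in smooth muscle. Among the 7 class profiles with at least 50 cells, the levels of neighbours in the order had separate intervals except for smooth muscle of both AngII libraries.

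Lrp6, the Wnt co-receptor, was flatter. It stood at 83.8, 61.9 and 53.1 CPM in fibroblasts and at 46.4, 28.3 and 29.1 in smooth muscle. Macrophages had 71.3 (67.7 to 75), the second highest level of the 7. Neighbouring levels overlapped between fibroblasts of CNC AngII (48.9 to 57.5) and smooth muscle of SHF baseline (43.9 to 48.9), and between smooth muscle of both AngII libraries.

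Vldlr, the receptor for very-low-density lipoprotein, had the opposite order and was the 1 member of the 8 that was highest in smooth muscle. Smooth muscle held 133 CPM (129 to 137), 57.3 (55.5 to 59.1) and 44 (42.7 to 45.3). Fibroblasts held 37.2 (35.3 to 39.2), 6.81 (6.07 to 7.62) and 5.94 (4.61 to 7.53), which is 3.57-fold, 8.41-fold and 7.41-fold below smooth muscle. Macrophages had 14 UMIs in 20771464, a level of 0.674 CPM, and 0.737% of 1764 cells had one. In the same library 44.8% of smooth muscle cells and 7.6% of fibroblasts had one. Median depths were 11108.5 UMIs in macrophages, 13450 in smooth muscle and 12379.5 in fibroblasts. The part of free RNA in these shares was not tested. In fibroblasts Vldlr stood at 28%, 11.9% and 13.5% of its smooth muscle level. Of 4 smooth muscle genes measured the same way, Actg2 was the lowest at SHF baseline, at 0.197%, and Tagln the highest, at 2.82%. In the AngII libraries Tagln stood at 8.48% and 9.65%, nearer to Vldlr, and Cnn1 at 0.794% and 0.777%.

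Apoe, a ligand of the receptors encoded by Lrp1 and Vldlr, was highest in macrophages of CNC AngII, at 8709 CPM (8669 to 8749). Fibroblasts held 4302 (4282 to 4323), 700 (692 to 708) and 755 (739 to 771). Smooth muscle held 786 (776 to 796), 177 (174 to 180) and 128 (125 to 130). Smooth muscle of SHF baseline thus had about as much Apoe as fibroblasts after AngII, although the intervals were apart. In SHF baseline the fibroblast genes Dcn, Dpt and Pi16 were present in smooth muscle at 2%, 1.32% and 0.536% of their fibroblast level, Lum at 4.35%, Col1a1, which smooth muscle also makes, at 19.2%, and Apoe at 18.3%. The Apoe UMIs were unevenly spread: the 10% of smooth muscle cells with the most held 53%, 66.4% and 75.3% of them, against 28.6% for the same share of macrophages.

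Lpl, the lipase, stood at 324 CPM (318 to 330), 81.2 (78.6 to 83.9) and 77.4 (72.4 to 82.7) in fibroblasts. In smooth muscle it was 58.1 (55.4 to 60.9), 24.8 (23.6 to 26) and 18.6 (17.7 to 19.5), and in macrophages 83 (79.1 to 87), whose interval overlaps those of both AngII fibroblast profiles. Abca1 was 49.9 (47.7 to 52.2), 10.3 (9.35 to 11.2) and 14.1 (12 to 16.4) in fibroblasts, 9.81, 2.1 and 2.28 in smooth muscle and 90.2 (86.1 to 94.4) in macrophages. Of the 3 classes, macrophages had the most Abcg1 and Cd36, at 19.8 (17.9 to 21.8) and 111 (107 to 116) CPM. A small group of 32 cells of CNC AngII with at least 3 UMIs of the endothelial genes Pecam1 and Cdh5 had 233 CPM of Cd36 (173 to 309), from 49 UMIs in 8 of the cells, and also carried fibroblast markers. In smooth muscle and fibroblasts Abcg1 did not exceed 1.12 CPM and Cd36 did not exceed 1.75 CPM, and no order is read from these low levels. The part of free RNA in them was not tested.

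**Figure D1:**
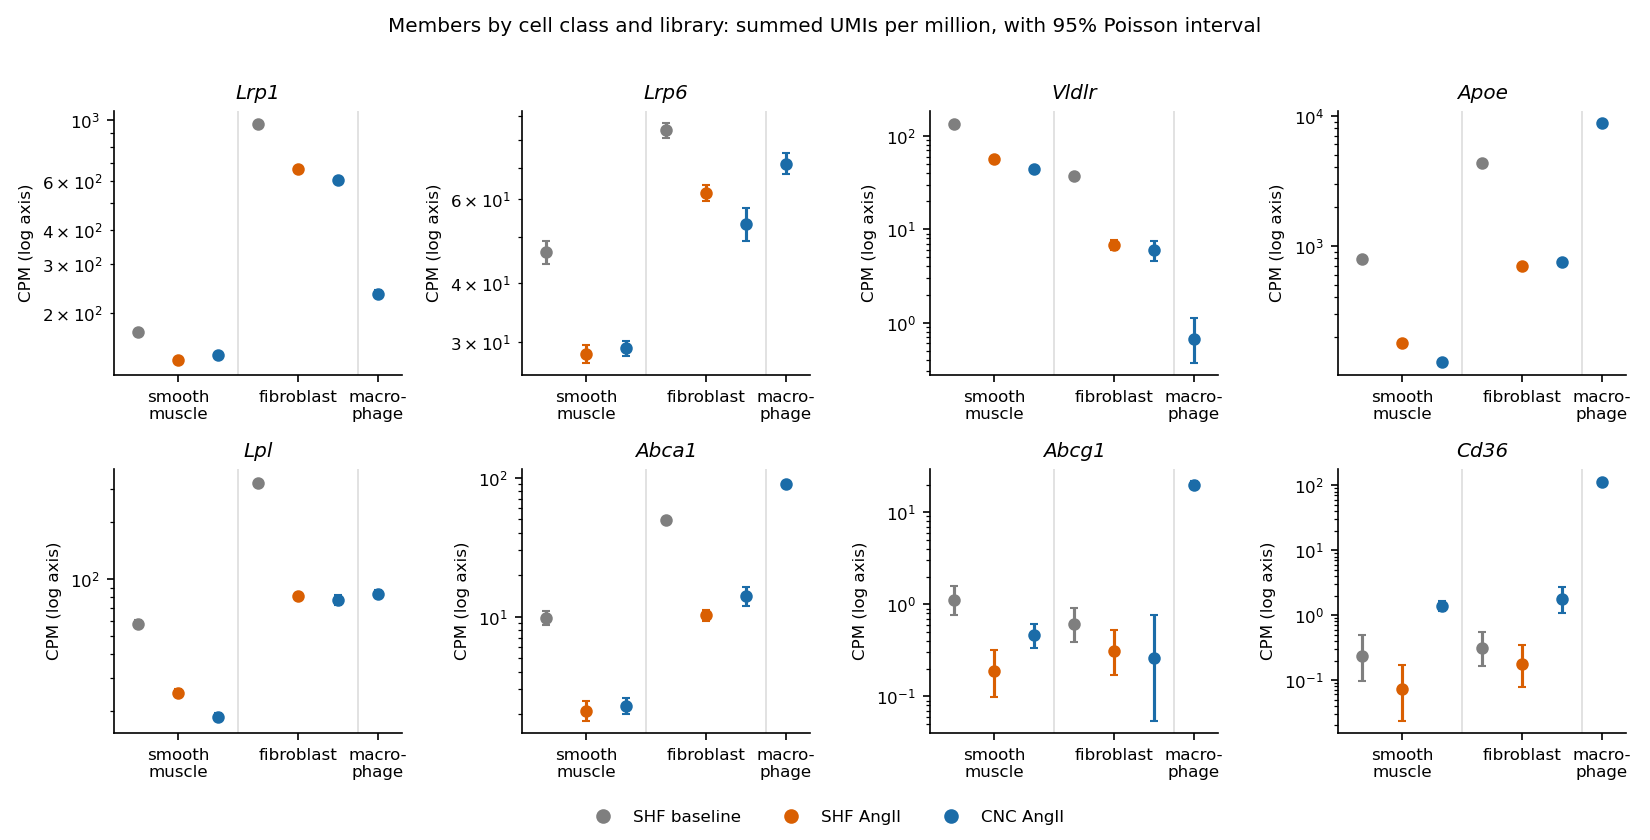
Level of each of the 8 genes (CPM, log axis) in smooth muscle cells, fibroblasts and macrophages; points are 1 library each, coloured by library, and bars are 95% Poisson intervals. Lrp1, Lpl and Apoe sit higher in fibroblasts than in smooth muscle of the same library, Vldlr sits lower, and Abcg1 and Cd36 exceed 2 CPM only in macrophages among the 3 classes plotted.

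Counted by class within a library, 6 members had a mean of at least 10 CPM over fibroblasts and smooth muscle of SHF baseline, and 5 of them were at least 1.5-fold higher in fibroblasts, where 24.6% of all 7735 genes were. In SHF AngII it was 4 of 5 against 22.6%, and in CNC AngII 4 of 5 against 21.7%; Vldlr was lower in each, where 12%, 15.3% and 14.9% of genes were. Of the 8 members, 7 were at least 1.5-fold higher in macrophages than in smooth muscle of CNC AngII (34.8% of genes were), with 68.2-fold for Apoe, 80.1-fold for Cd36 and 39.5-fold for Abca1. Vldlr was 65.3-fold lower, where 24.4% of genes were lower. Against fibroblasts 4 of 7 were higher (28.2% of genes were), namely Apoe at 11.5-fold, Abca1 at 6.41-fold, Abcg1 and Cd36. Lrp1 was 2.58-fold lower, where 24.3% of genes were lower. Some members reached the mean of 10 CPM only through the class where they were higher, so that filter fixed their direction. For macrophages against smooth muscle these were Abca1, Abcg1 and Cd36, and Vldlr through smooth muscle. For macrophages against fibroblasts they were Abcg1 and Cd36. For fibroblasts against smooth muscle they were Abca1 at SHF baseline and Vldlr in each AngII library.

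Lipoprotein genes were lower in SHF cells after AngII in both classes, and Lrp1 and Lrp6 had the smallest ratios of those with a mean of 10 CPM. In smooth muscle 5 of the 8 members had a mean of at least 10 CPM over both libraries, and 4 of these, Apoe, Vldlr, Lpl and Lrp6, were at least 1.5-fold lower than at baseline, where 15.6% of all 7001 genes were. In fibroblasts 6 members had that mean, and 4 of these, Apoe, Vldlr, Abca1 and Lpl, were lower, where 27.6% of 7694 genes were. Vldlr in fibroblasts, at 37.2 and 6.81 CPM, reached that mean only through baseline, so the filter fixed its direction. No member that had that mean was higher, where 8.76% of genes in smooth muscle and 10.5% in fibroblasts were. The median log2 ratio of these members was -1.20 in smooth muscle and -2.08 in fibroblasts, beside -0.10 and -0.21 for all genes.

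The log2 ratios below are of CPM with 1 CPM added to both sides, while their intervals are of the ratio without it. Apoe went from 4302 to 700 CPM in fibroblasts, a log2 ratio of -2.62 (-2.64 to -2.60). In smooth muscle it went from 786 to 177, a log2 ratio of -2.15 (-2.19 to -2.12). The share of cells with an Apoe UMI after thinning went from 76.2% to 53% in fibroblasts and from 53.2% to 21.8% in smooth muscle. These are the lowest ratios among the members with a mean of 10 CPM, which all had ratios below 0.

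Vldlr had log2 ratios of -2.29 in fibroblasts (-2.63 to -2.27) and -1.20 in smooth muscle (-1.28 to -1.15). Lpl had -1.98 (-2.05 to -1.94) and -1.20 (-1.33 to -1.13). Abca1 had -2.18 in fibroblasts (-2.43 to -2.13), from 1891 UMIs at baseline and 461 after AngII. In smooth muscle Abca1, at 290 and 146 UMIs, was under the mean of 10 CPM, with a log2 ratio of -1.80, or -2.22 without the added 1 CPM. Abcg1 and Cd36 were under it in both classes, with 5 to 33 UMIs in any profile.

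Both LRP receptors were nearer to baseline. Lrp1 had a log2 ratio of -0.34 in smooth muscle (-0.39 to -0.29) and -0.54 in fibroblasts (-0.56 to -0.52), both inside 1.5-fold. Under a stricter cell filter, described below, Lrp1 in smooth muscle was past 1.5-fold, at -0.87. Lrp6 had -0.69 in smooth muscle (-0.81 to -0.61) and -0.43 in fibroblasts (-0.51 to -0.36). Scaling by the trimmed mean of M values (TMM), which ties the bulk of genes to 0, raised all ratios by 0.17 in smooth muscle and 0.27 in fibroblasts. Under it Lrp6 in smooth muscle came inside 1.5-fold, at -0.52, the genes lower and higher became 8.74% and 14.2% in smooth muscle and 15.3% and 20.6% in fibroblasts, and the members past the fold stayed 4 in fibroblasts.

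**Figure D2:**
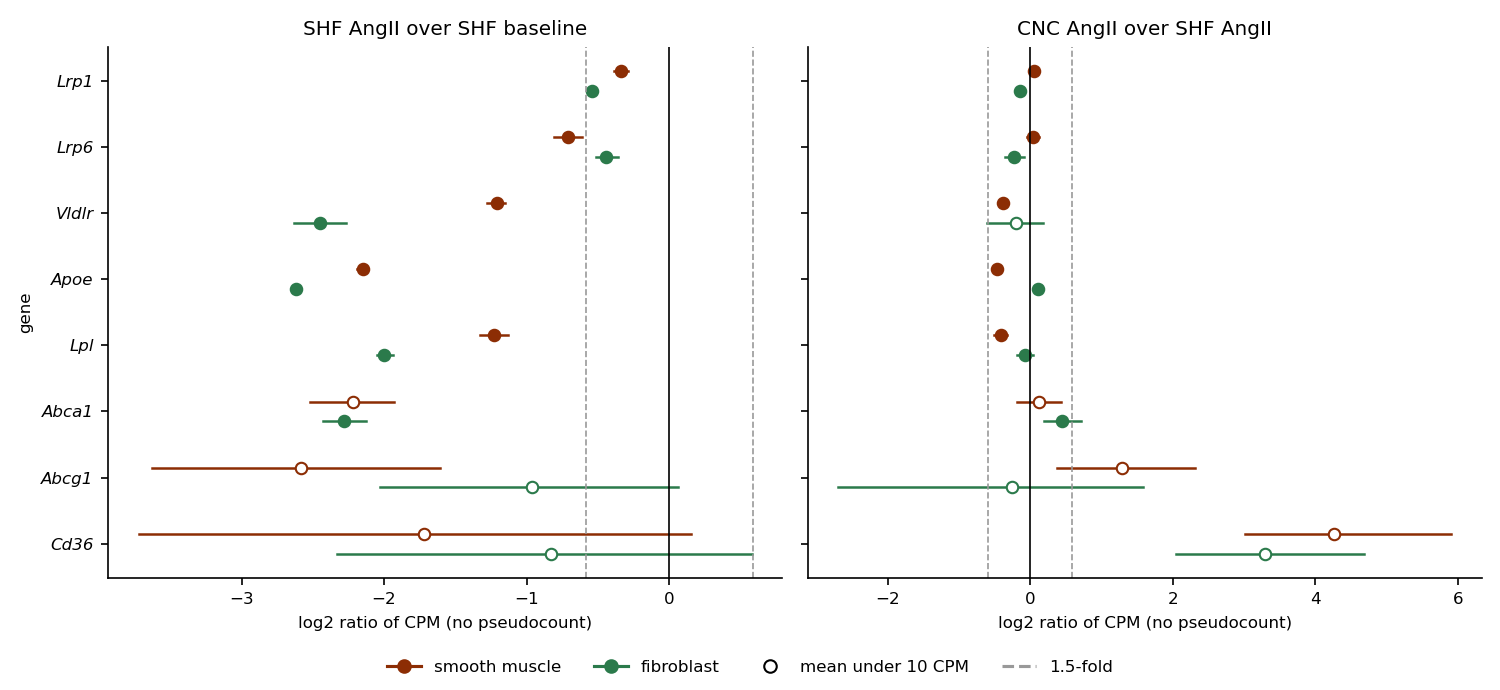
Log2 ratio of CPM for each gene, SHF AngII over SHF baseline (left) and CNC AngII over SHF AngII (right), in smooth muscle cells and fibroblasts; bars are 95% counting intervals and open points have a mean under 10 CPM. On the left the filled points all lie below 0, down to Apoe in fibroblasts at -2.62, and on the right the filled points all lie inside the dashed 1.5-fold lines.

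Measures of cell state moved with these ratios. The median share of mitochondrial UMIs in smooth muscle was 7.36% at SHF baseline and 5.43% after AngII, and in fibroblasts 4.09% and 2.82%. Under a stricter cell filter (1000 or more genes, no more than 5% mitochondrial), 120 smooth muscle cells of SHF baseline were left, and the ratio was -0.87 for Lrp1 and -3.42 for Apoe. Macrophage markers were near 0 in smooth muscle of both SHF libraries, summing to 2.61 and 1.44 CPM over 9 genes with C1qa, C1qb and C1qc at 0 at baseline. Fibroblast markers summed to 1742 and 1900 CPM over 7 genes in smooth muscle (Pdgfra at 0 by the gate) and, in fibroblasts themselves, to 37105 and 15089, while smooth muscle markers in fibroblasts summed to 1290 and 4064. Among smooth muscle cells with no UMI of 9 markers of other classes, the Apoe level went from 536 to 95.7 CPM, a log2 ratio of -2.47. The part of mitochondrial share and of fibroblast state in the ratios was not tested.

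Within subsets of the classes the direction for Apoe was the same but its size was not. Smooth muscle cells with a UMI of Igfbp2 (an insulin-like growth factor binding protein) made up 23.7% of the class in SHF baseline and 67.5% in SHF AngII. They had less Apoe than cells without one, at 456 against 909 CPM at baseline and 97.9 against 397 after AngII. The log2 ratio was -2.21 among Igfbp2-positive and -1.19 among Igfbp2-negative cells, beside -2.15 for the whole class. Cells with an Igfbp2 UMI were also deeper, with a median of 14501.5 against 11965 UMIs at baseline.

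Fibroblasts without a UMI of Pi16, a marker of adventitial fibroblasts, had more Apoe than those with one. Their level was 11708, 1897 and 1589 CPM, against 3159, 596 and 636 in Pi16-positive cells. Lrp1 was the other way round, at 712, 477 and 450 CPM without Pi16 and 1006, 681 and 628 with it. Fibroblasts with a UMI of Cthrc1, a gene of activated fibroblasts, were 12.1% of the class in SHF baseline and 62.3% in SHF AngII, and they were deeper than the others (a median of 12112.5 against 9162 UMIs and 19231 against 10656.5). They had less Apoe than Cthrc1-negative cells in all 3 libraries, at 2379 against 4663, 465 against 1382, and 443 against 1405 CPM. The log2 ratio of Apoe was -2.35 within Cthrc1-positive and -1.75 within Cthrc1-negative fibroblasts.

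**Figure D3:**
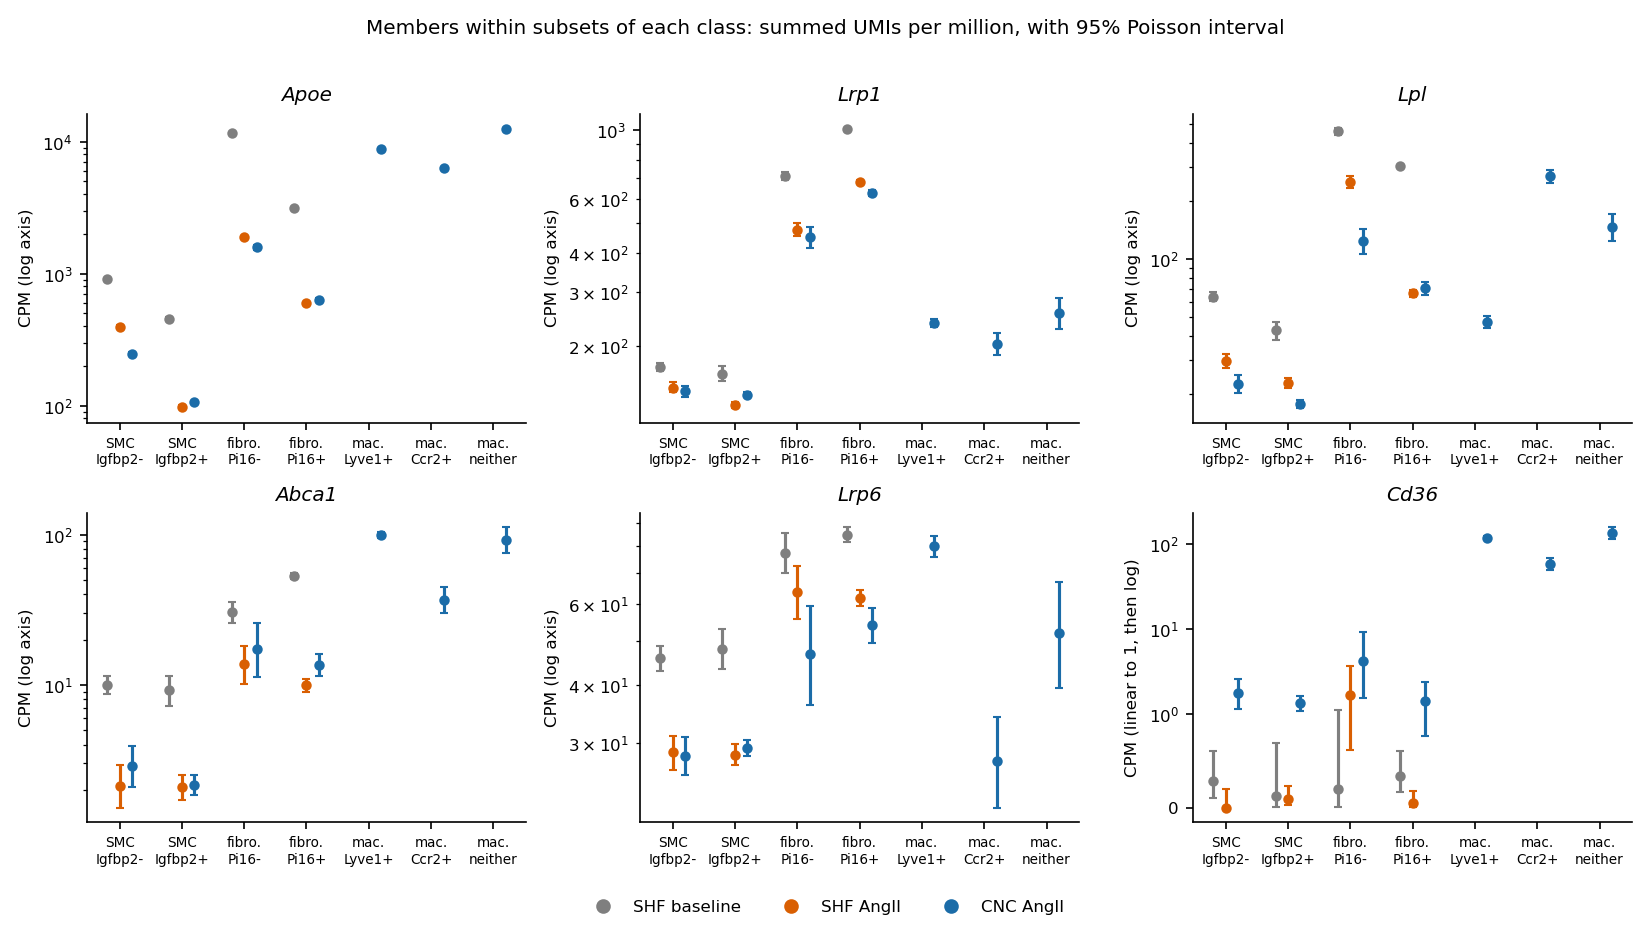
CPM of 6 of the genes within subsets of smooth muscle cells (with or without an Igfbp2 UMI), fibroblasts (with or without Pi16) and macrophages (Lyve1-positive, Ccr2-positive without Lyve1, or neither), by library, with 95% Poisson intervals; subsets under 50 cells are not drawn. Apoe is higher in cells without Igfbp2 and without Pi16 in each library, while Lrp1 is higher in fibroblasts with Pi16.

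Genes that make sterols had the opposite direction from Apoe and Abca1 in the same cells. In smooth muscle 11 of 13 genes of sterol synthesis and uptake with a mean of at least 10 CPM were at least 1.5-fold higher after AngII and 0 were lower (1 under the stricter cell filter), where 8.76% of all genes were higher. Fdps, which makes farnesyl diphosphate, went from 94.5 to 442 CPM. Cyp51, a demethylase of the pathway, went from 21 to 75, and Sc5d, a desaturase near its end, from 13 to 41.1. Insig1, which holds the pathway's activators in check, stood at 46.3 and 35.4 CPM, inside 1.5-fold. The list's median log2 ratio was 0.99, beside -0.10 for all genes, and its count of higher genes was 9 to 12 over 14 other settings. In fibroblasts 5 of 15 were higher (11 under TMM), where 10.5% of all genes were (20.6% under TMM), and Insig1 was lower, from 67.9 to 39.8 CPM, with a list median of 0.48 beside -0.21.

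Among genes of sterol efflux and the LXR pathway, 4 of 13 were lower in fibroblasts, where 27.6% of all genes were, and 0 were higher. The lower ones included Pltp, a phospholipid transfer protein (110 to 26.4 CPM), Cyp27a1, which makes an oxysterol (36.4 to 9.58), and Mylip, a ubiquitin ligase induced by LXR (23.2 to 7.71). In smooth muscle, where 15.6% of all genes were lower and 8.76% higher, 2 of 10 were lower, Pltp (20.3 to 7.07) and Mylip (20.3 to 7.57), and 2 were higher, the lysosomal sterol carrier Npc2 (119 to 209) and Lpcat3 (17.6 to 29.1). Nr1h3, which encodes LXR alpha, was at 12.2 and 13.1 CPM in fibroblasts.

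Ligands and partners of the receptors did not move as one group. Of 11 LRP1 ligands in smooth muscle 5 were higher and 1 lower, where 8.76% and 15.6% of all genes were. The higher ones included the plasminogen activator Plat (40.5 to 110 CPM) and fibronectin, Fn1 (421 to 767). Timp3, a metalloproteinase inhibitor, was the lower one (696 to 445), and under TMM it came inside 1.5-fold. In fibroblasts 3 of 12 were higher and 2 lower, where 10.5% and 27.6% of all genes were. Fn1 went from 448 to 728 CPM, whereas Plat went from 233 to 93.1 and the gelatinase Mmp2 from 561 to 229. In a list of LRP6 partners and other Wnt pathway genes, 0 were higher in either class (1 in smooth muscle under TMM). The list shares Lrp5 with that of the LDL receptor family. In smooth muscle 4 of 9 and in fibroblasts 5 of 8 were lower, where 15.6% and 27.6% of all genes were. These included the Wnt receptor Fzd1 in smooth muscle (94 to 46.3), and Fzd7 (28.2 to 10.4) and the secreted modulator Dkk3 (196 to 61) in fibroblasts.

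Other LDL receptor family members numbered 6 in smooth muscle. Of these Lrp5 (18.1 to 9.38 CPM), Sorl1 (145 to 86.1) and Ldlrad3 (23.3 to 12.1) were lower, where 15.6% of all genes were. A further 1 of the 6 was higher, where 8.76% of all genes were. In fibroblasts Lrp5 and Ldlrad3 were lower among 5, where 27.6% of all genes were, against 1 lower under TMM. Receptor chaperones, adaptors and sheddases gave 3 lower and 1 higher of 11 in smooth muscle and 4 lower and 1 higher of 12 in fibroblasts, where the shares over all genes were 15.6% and 8.76% in smooth muscle and 27.6% and 10.5% in fibroblasts. The chaperone Lrpap1 was at 132 and 150 CPM in smooth muscle, and Mmp14, a protease that can shed LRP1, was the higher one in both classes (38.3 to 69 in fibroblasts). Around Lpl, fatty acid binding proteins stood out in fibroblasts: Fabp4 went from 8.5 to 143 CPM and Fabp5 from 41.7 to 196, and the lipase inhibitor Angptl4 from 47.6 to 87.7. In total 3 of 9 genes of this list were higher and 2 lower in fibroblasts, and 1 of 9 was higher and 0 lower in smooth muscle, where 10.5% and 27.6% of all genes were in fibroblasts and 8.76% and 15.6% in smooth muscle. Adipocyte markers summed to 0.0528 CPM in fibroblasts at baseline and 1.25 after AngII over 5 genes, with Cidec and Lep at 0 in both. Of scavenger receptors, 0 of 1 in smooth muscle and 0 of 2 in fibroblasts were past 1.5-fold (1 of 2 in fibroblasts under TMM).

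**Figure D4:**
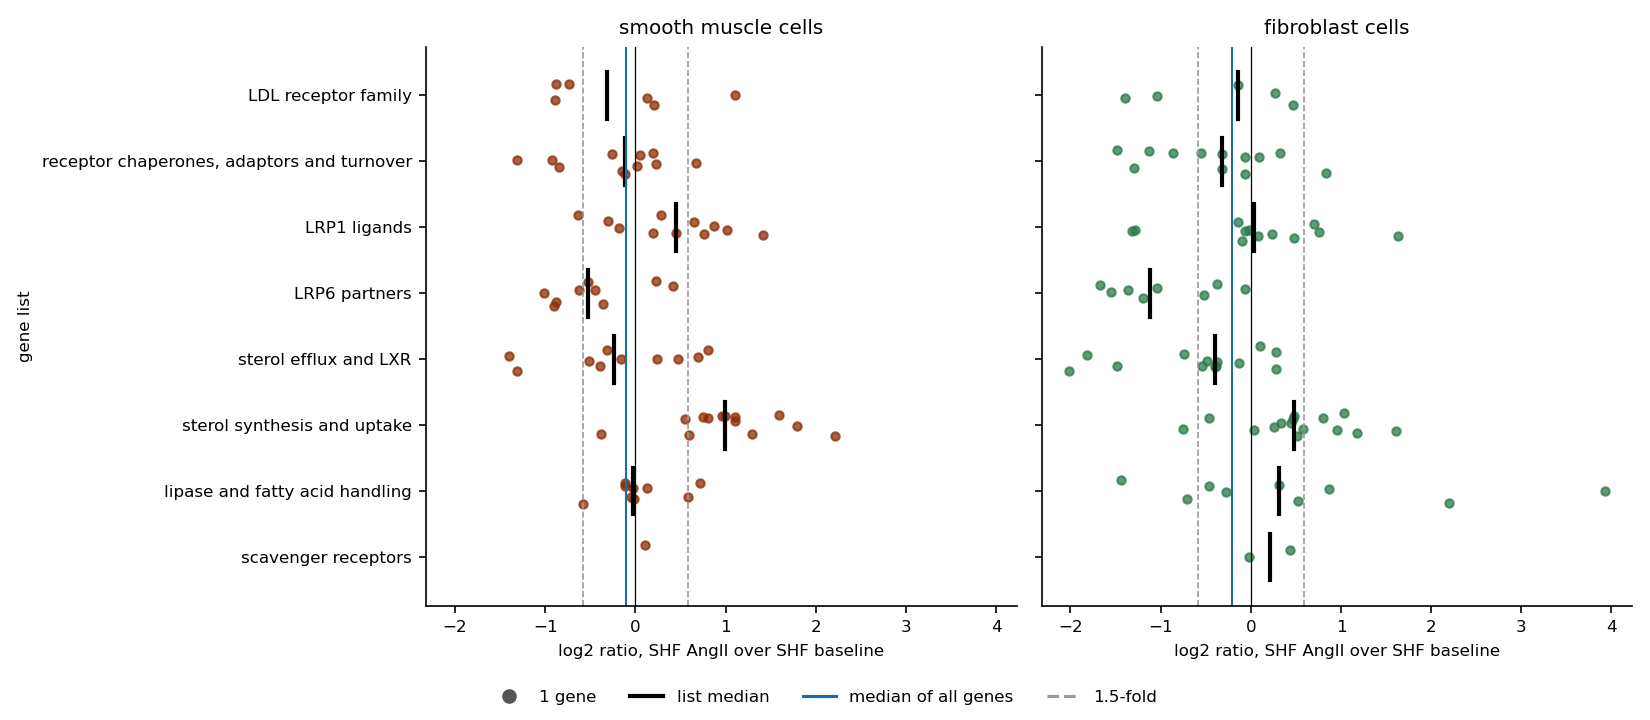
Log2 ratios, SHF AngII over SHF baseline, of the genes of 8 lists with a mean of at least 10 CPM, in smooth muscle cells (left) and fibroblasts (right); each point is 1 gene, the black bar is the list's median and the blue line the median of all genes. Sterol synthesis and uptake lies to the right in smooth muscle, with a median of 0.99. The list labelled LRP6 partners, which also holds other Wnt pathway genes, lies to the left in fibroblasts, with a median of -1.12.

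Between the lineages under AngII the members with a mean of at least 10 CPM were nearly alike, as were nearly all genes. CNC AngII was compared with the same SHF AngII library that enters the comparison with baseline, so these ratios share it. Of 5 members with a mean of at least 10 CPM, 0 were past 1.5-fold in smooth muscle, where 0.946% of 6766 genes were higher and 0.99% lower. In fibroblasts 0 of 5 were past it, where 1.25% of 7216 genes were higher and 1.07% lower. Lrp1 had a log2 ratio of 0.06 in smooth muscle (0.02 to 0.10) and -0.14 in fibroblasts (-0.17 to -0.10). Lrp6 had 0.04 (-0.05 to 0.12) and -0.22 (-0.35 to -0.09). Vldlr and Lpl in smooth muscle had -0.37 (-0.44 to -0.32) and -0.40 (-0.51 to -0.32), and Abca1 in fibroblasts had 0.42 (0.19 to 0.72). These intervals bound the counting error alone, and the spread between mice is unknown.

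Apoe in smooth muscle was the exception, because its value depended on which cells were counted. At 128 CPM in CNC AngII and 177 in SHF AngII its log2 ratio was -0.46 (-0.50 to -0.43). Leaving out cells that had a UMI of C1qa, C1qb or Lyz2 kept 3570 of 6385 cells in CNC AngII but 4636 of 4649 in SHF AngII. Among the cells kept the levels were 71 and 175 CPM and the ratio -1.29. With doublets kept they were 239 and 181 and the ratio 0.40. Macrophages were 17.3% of the kept cells of CNC AngII and 0.14% of SHF AngII. In CNC AngII smooth muscle the 9 macrophage markers summed to 358 CPM, against 1.44 in SHF AngII, and C1qa stood at 1.03%, C1qc at 1.01% and Lyz2 at 1.14% of their macrophage level, beside 1.47% for Apoe, 1.25% for Cd36, 2.32% for Abcg1 and 2.53% for Abca1. The part of macrophage RNA in the smooth muscle levels of these 4 genes was not tested beyond the settings given here. In fibroblasts Apoe had a log2 ratio of 0.11 (0.07 to 0.14), with macrophage markers at a summed 256 CPM in CNC AngII and 20.4 in SHF AngII.

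Cd36 also depended on which cells were counted, at low counts. Unlike Apoe, it was higher in CNC AngII with all smooth muscle cells and without those bearing a macrophage marker. It had 133 UMIs in CNC AngII smooth muscle and 5 in SHF AngII, or 1.39 and 0.072 CPM. Among the same 3570 and 4636 cells without a macrophage marker the levels were 0.386 and 0.0723. By Igfbp2, Apoe had a log2 ratio of 0.11 in positive and -0.68 in negative smooth muscle cells. Among the other lists, those past 1.5-fold between lineages included the endocytic adaptor Dab2 in smooth muscle (16.5 in CNC AngII and 4.72 CPM in SHF AngII) and, in fibroblasts, Sost (36.9 and 10.6), Timp3 (2103 and 1282) and Plat (59.1 and 93.1).

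**Figure D5:**
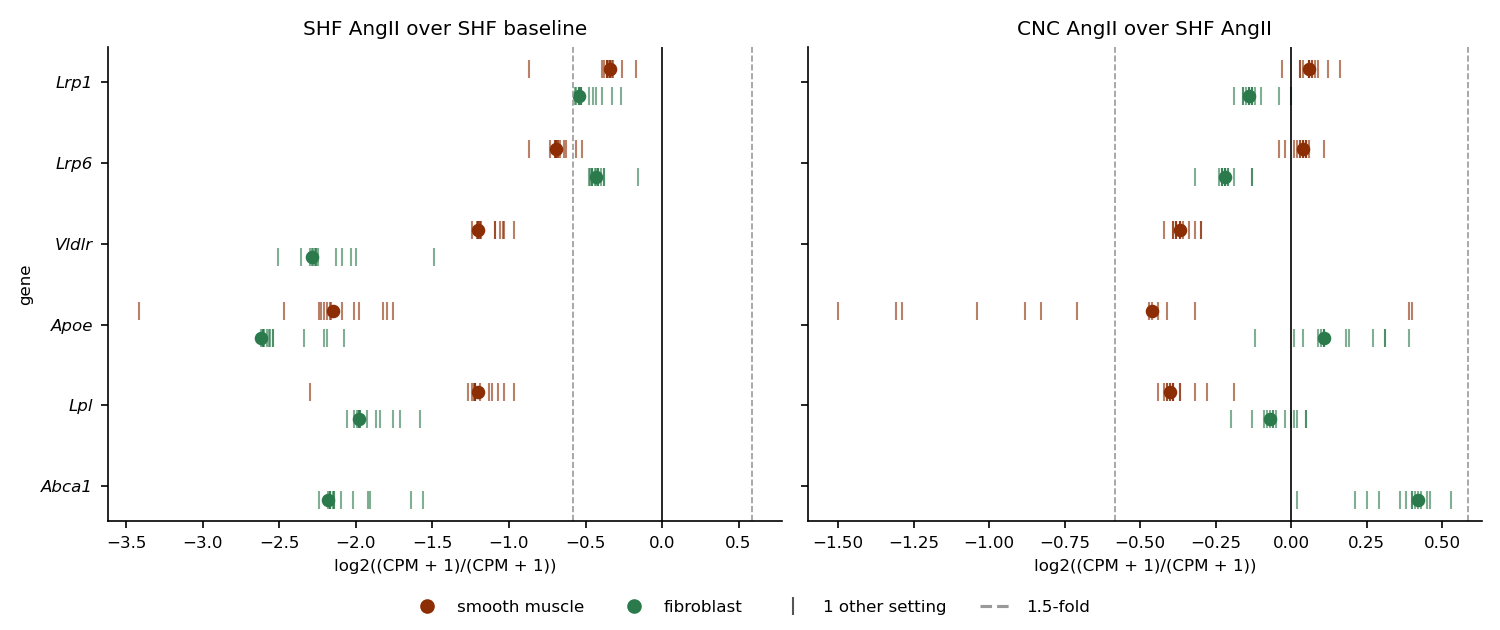
Log2 ratio of 6 genes in both comparisons under the reported setting (points) and 14 others (ticks), in smooth muscle cells and fibroblasts. The ticks of Apoe in smooth muscle, CNC AngII over SHF AngII, spread from -1.50 to 0.40, while those of Lrp1 in the same comparison span -0.03 to 0.16.

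Macrophages of CNC AngII were not uniform in lipid genes. Cells with a UMI of Lyve1, a marker of resident macrophages, were 76.5% of them, cells with Ccr2 but not Lyve1, the pattern of recent monocyte descent, 16.2%, and cells with neither 7.31%. Apoe stood at 8858 CPM (8813 to 8903) in the Lyve1-positive, 6339 (6247 to 6432) in the Ccr2-positive and 12494 (12288 to 12703) in the remaining cells. Cd36 was at 118, 58.4 and 134 CPM, and Abca1 at 99.1, 36.9 and 92.1, both lowest in the Ccr2-positive cells. Lrp6 was likewise 80 (75.8 to 84.4), 27.4 (21.7 to 34.2) and 51.9 (39.4 to 67). Lpl ran the other way, with 47.5 (44.2 to 50.9) in Lyve1-positive, 268 (249 to 288) in Ccr2-positive and 147 (125 to 171) in the remaining cells. Lrp1 differed least, at 238 (231 to 246), 204 (187 to 221) and 256 (227 to 287). Median depths were 11730, 9874 and 8134 UMIs, so shares of cells are not compared.

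The genes whose profile over the 7 class-by-library levels was most like that of Lrp1, among 2711 genes with a mean of at least 50 CPM, were Phlda1, Cyb5a, Lpar1, Tm2d2 and Irf1, with Pearson r from 0.994 to 0.985. For Apoe they were Osgep, Anxa4, Glul, Selenop and Stx12, with r from 0.991 to 0.983. Among the members Apoe and Abca1 were the most alike pair, with r = 0.99, followed by Abcg1 and Cd36 with 0.95, while Lrp1 and Apoe had 0.50. The 7 points share 3 libraries, so these are descriptions with no p.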

How the data were processed

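Single-cell libraries (10x Chromium 3′ v3) of sorted aortic cells were read from 3 deposited tables of raw UMI counts per gene and barcode, the authors' files, with no normalisation. The submitters' processing notes name fastp, STAR 2.5, HTSeq 0.6.1 and the build mm10. The gene annotation is not given in the sources used here. Names of the baseline table were matched to the AngII tables as spelled or, in 518 cases, by a synonym that fits 1 gene alone. The 18112 common genes hold 99.6% to 99.9% of UMIs.

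Barcodes with 500 genes or more and 10% mitochondrial UMIs or less were used, and doublets marked by Scrublet (scanpy 1.11.5, expected rate 8e-06 per barcode, run on barcodes of 200 or more genes and 20% or less mitochondrial), 207, 192 and 279 in number, were left out. No class took 25.9%, 21.5% and 11.9% of kept cells. UMIs were summed by class and divided by all UMIs of the class. Intervals are exact Poisson for levels, conditional binomial for ratios and Clopper-Pearson for shares. With 1 library per group no test was made. Genes with a mean of at least 10 CPM in a comparison were counted, and 1.5-fold was the threshold. A counted gene under 10 CPM on 1 side passed only through the other side, which fixed its direction. TMM came from edgeR 4.0.16. Ratio code was tested on simulated data. Named list genes are up to the 3 highest and 3 lowest of each list. The 8 genes, the lists and the alternatives were chosen with earlier results of these data known. The rows of the tables name no reporter or Cre, so the sort was not checked. Some genes of the lists are not reported here by name.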

Additional observations from a re-analysis of the deposited data

How the results depend on the processing

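The results were recomputed under 14 other settings for ratios and 17 for counts; those without cells bearing macrophage markers or markers of another class were chosen after seeing the data. Of the alternative values, 194 of 294 ratios and 57 of 68 counts moved by less than the counting interval or by less than 1.5 times. Of the levels, 427 counted as the same and 285 as moved. Among called ratios 0 changed sign. Apoe in smooth muscle between the lineages, not called in the reported setting, ran from -1.50 to 0.40. From baseline to AngII, the members past 1.5-fold were 2 instead of 4 in smooth muscle and 2 instead of 4 in fibroblasts when a mean of 50 CPM was required, since fewer genes were counted. Between the lineages, the count in smooth muscle was 1 instead of 0, by Apoe being lower, with the mean of per-cell CPM (log2 ratio -0.83), thinning to 2000 UMIs (-0.88), cells of 5000 to 20000 UMIs (-1.04), stricter gates (-1.31), 5% of the library profile subtracted (-1.50), no macrophage marker (-1.29) and no marker of another class (-0.71). With all barcodes kept, the ratio of Apoe was 0.39. With no CPM minimum, 1 member, Cd36, was higher in smooth muscle and 1, Cd36, in fibroblasts. The cause was not tested. From baseline to AngII, Apoe ranged from -3.42 to -1.76 in smooth muscle and from -2.62 to -2.08 in fibroblasts, and Lrp1 from -0.87 to -0.17 and from -0.57 to -0.27. No paired analysis was possible because each group has 1 library and the labels carry no replicate numbers; for the same reason no replicate could be left out. Depth limits Abcg1 and Cd36 in smooth muscle and fibroblasts, where a floor of 3 counts, taken as what a count of 0 allows, is 0.0313 to 0.262 CPM.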
